A study of Mus musculus with 10 samples.

Results

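Proliferating microglia are the 1165 cells that the authors' annotation places in the class Microglia with the fine state Proliferating. They make up 5.39% of 21630 microglia and 1.69% of 68914 annotated cells, and they are identical with microglial subcluster 9. Live cells were sorted from dissociated hippocampus of male wild-type C57BL/6 mice aged 11 weeks and read by droplet single-cell RNA sequencing, giving 10 libraries. The tissue was taken at day 3, after both hippocampi had received vehicle (4 libraries), FL-NfL (full-length neurofilament light chain, 1 mg/ml, 3 libraries) or CC-NfL (its coiled-coil part, 1 mg/ml, 3 libraries). Neurofilament light chain belongs to the intermediate filaments that give axons their width, and the study compared how brain cells stand after it is supplied from outside. All animals, vehicle included, received an injection into the hippocampus, and neither an uninjected group nor a group given an unrelated protein was analysed here.

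Microglia are the resident macrophages of the brain. In the adult they renew themselves slowly by local division, without a steady supply of cells from blood, and their survival and division depend on signalling through the receptor CSF1R. After injury they divide more, and dividing cells are usually recognised in single-cell data by cell cycle genes such as Mki67, which encodes the Ki-67 protein of cycling nuclei, and Top2a, a topoisomerase that untangles DNA before division. The deposited table gives names and map positions of cells and no gene values, so these markers were not checked, and the label rests on the authors' annotation. A cell in this state is one whose RNA profile was named proliferating at a single time, so the values below are shares of cells and not rates of division. A larger share cannot be told apart from fewer cells of the other kinds.

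Each library held 3150 to 14141 annotated cells, 939 to 4137 microglia and 25 to 296 proliferating microglia. Libraries of batch b2 held more annotated cells, with 170 proliferating cells on average (n = 4) against 80.7 in batch b1 (n = 6). Each group had libraries in both batches. The share in a vehicle library with 25 proliferating cells is therefore much less certain than in a CC-NfL library with 296. Barcode letters recurred in another library for 21 of the 1165 cells (1.80%, against 1.55% of all annotated cells), and 0 barcodes were shared between proliferating cells of different libraries.

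On the authors' map of microglia, the proliferating cells mostly formed one tip at the edge of the activated cells. Of the 30 nearest microglia from other libraries, 90.8% were also proliferating on average over the cells, with a range of 87.4% to 95.6% over the 10 libraries. On the map of all cells, all of the 30 nearest annotated cells from other libraries were microglia (100%), and 0% were macrophages or NPC, a class read as neural progenitor cells, many of which also divide. Map and state were made from the same cells, so these values describe the state and do not test it.

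The clustering of all 68914 cells, which did not enter the rule for membership, divided nearly all of the state between 2 clusters. Cluster 9 held 786 of the 1165 cells (67.5%) and cluster 21 held 372 (31.9%), while 4 cells lay in cluster 30 and 3 in cluster 1. Cluster 9 was almost purely proliferating: 93.3% of its 842 cells carried that state, and the rest were 51 Activated_1, 2 Activated_2 and 3 homeostatic microglia. Cluster 21 held mostly activated microglia. Of its 5470 cells, 54.6% were Activated_2, 18.9% Activated_3, 16.6% Activated_1 and 3.14% homeostatic, and 6.80% were proliferating.

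The clusters also lay apart on the map of microglia, where cluster 9 filled the outer end of the tip and cluster 21 its base. Among the 30 nearest microglia that were not proliferating, taken from other libraries, cells of cluster 9 had 56.2% Activated_1 and 32.8% Activated_2. Cells of cluster 21 had 3.67% Activated_1 and 83.7% Activated_2. Activated_3 made up 10.8% and 12.6% of these neighbours, and homeostatic cells 0.14% and 0.02%. Among the 30 nearest microglia of any state, 98.0% were proliferating for cells of cluster 9 and 76.3% for cells of cluster 21.

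**Figure D1:**
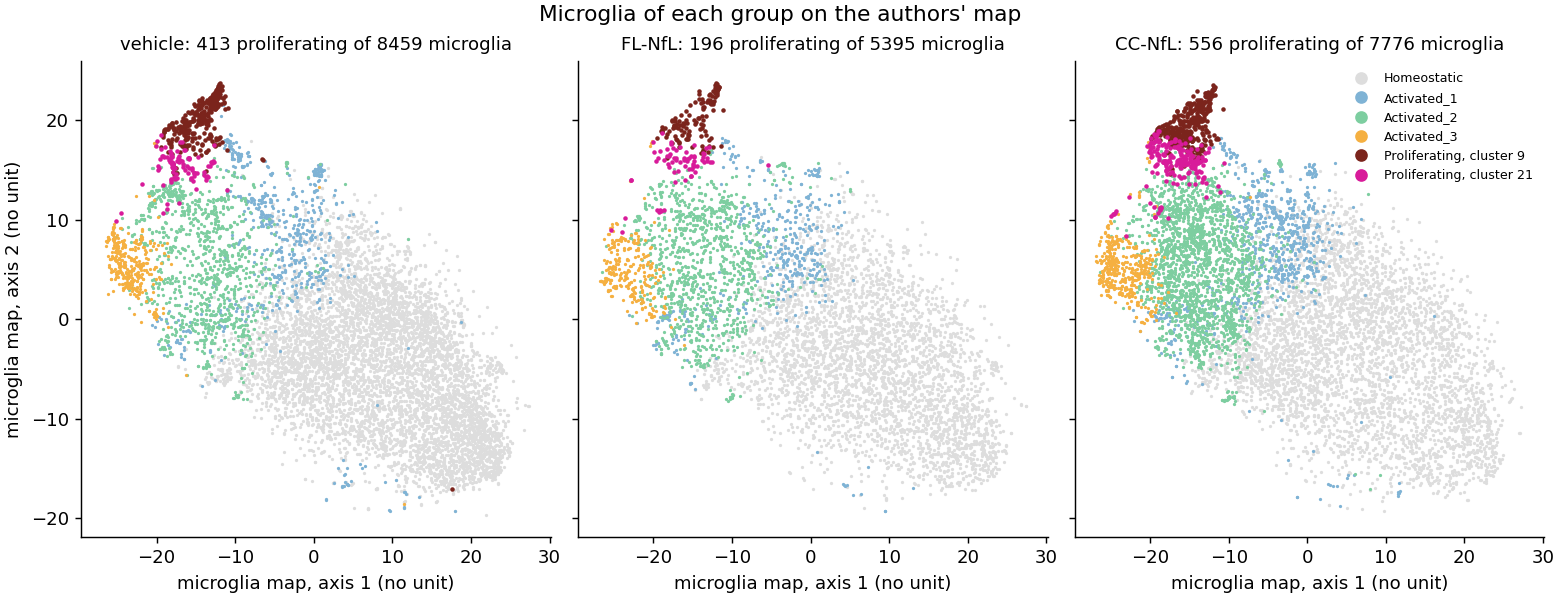
Positions of all 21630 microglia on the authors' map of microglia (both axes without unit), with 1 panel per group and each point a cell coloured by its state. Proliferating cells (413 in vehicle libraries, 196 in FL-NfL and 556 in CC-NfL libraries) sit in a tip at the edge of the Activated_1 and Activated_2 cells, and are split by whole-data cluster into an outer part (cluster 9) and a base (cluster 21).

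The first question was whether more microglia were proliferating after either protein. After vehicle, proliferating cells made up 2.66%, 5.19%, 4.41% and 5.98% of microglia in replicates 1 to 4. Exact 95% intervals, which cover counting error only, ran from 1.73% to 3.91% for replicate 1 and from 5.15% to 6.89% for replicate 4, so these vehicle libraries differed by more than counting error. After FL-NfL the values were 5.49%, 4.98% and 2.16%, the last being the lowest of all 10 libraries, with an interval of 1.66% to 2.77%. After CC-NfL they were 5.69%, 8.08% and 7.15%, of which the last pair lay above every vehicle library and the first within the vehicle range.

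The mean share was 4.56% ± 1.42 (SD, n = 4) after vehicle, 4.21% ± 1.79 (SD, n = 3) after FL-NfL and 6.97% ± 1.21 (SD, n = 3) after CC-NfL. In limma's moderated test on log2 odds, with group and batch as terms, the log2 odds for CC-NfL exceeded those for vehicle by 0.66 (SE 0.51, adjusted p = 0.208), with a 95% interval of -0.40 to 1.72. The exact permutation p of the percentages for this contrast was 0.0857, where 4 against 3 libraries can reach 0.0286. The test did not pass, and the interval includes both no change and a change of more than 1 on the log2 scale. Limma called 2 of 5 microglial states for this contrast (40.0%), and 3 of 5 (60.0%) had groups that did not overlap; the proliferating state was in neither set.

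For FL-NfL the difference from vehicle was -0.20 on the log2 odds scale in limma (SE 0.51, adjusted p = 0.703), with an interval of -1.26 to 0.86 and an exact permutation p of 0.714. Among the 5 states, 0 were called by limma (0%) and 0 by the quasi-binomial model, and 1 had an unadjusted p under 0.05. The direction rests on FL-NfL replicate 3: without it the log2 odds ratio was 0.42 (adjusted p = 0.412), and in batch b1 alone 0.50. In batch b1 the mean share was 3.93% for vehicle, 5.23% for FL-NfL and 6.88% for CC-NfL. In b2 it was 5.20% for vehicle, with 1 FL-NfL library at 2.16% and 1 CC-NfL library at 7.15%. CC-NfL was above vehicle in both batches, whereas FL-NfL was above vehicle in b1 and below it in b2.

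Between the proteins, each CC-NfL library held a larger share than every FL-NfL library, and 1 of 5 microglial states (20.0%), this one, separated the groups in that way. In limma FL-NfL minus CC-NfL was -0.86 in log2 odds (SE 0.54, adjusted p = 0.627), with an interval of -1.98 to 0.26. Of the 5 states, 0 (0%) were called by limma, 0 by the quasi-binomial model, and 0 reached an unadjusted p under 0.05. The exact permutation p was 0.10, the smallest that 3 against 3 libraries allow. Without the 3 libraries numbered 1 the difference passed in limma (-1.27, adjusted p = 0.0139). It was the only 1 of 9 such alternatives to pass, and 0 of 10 fits that left out 1 library passed. For both proteins together against vehicle, the mean over 6 libraries was 5.59% ± 2.04, with a limma difference of 0.23 (SE 0.44, adjusted p = 0.598) and an exact permutation p of 0.414. Limma called 2 of 5 states for this contrast (40.0%), again without the proliferating state. The sign of that estimate turned without vehicle replicate 1 (-0.12).

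**Figure D2:**
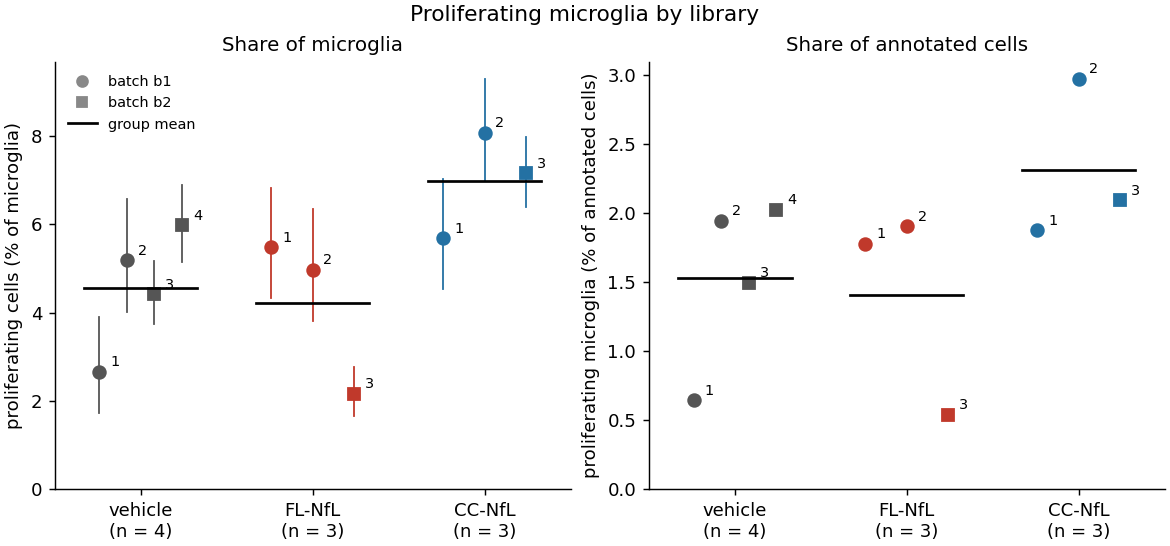
Proliferating microglia in each library as a percentage of microglia (left, with exact 95% intervals as vertical lines) and of annotated cells (right), for 4 vehicle, 3 FL-NfL and 3 CC-NfL libraries, with replicate numbers beside the points and group means as horizontal bars. CC-NfL replicates 2 and 3 exceed every vehicle library in both panels, and FL-NfL replicate 3 is the lowest library in both.

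As a share of all annotated cells, a denominator that other microglial states weigh on less, the order of the group means was the same. Proliferating microglia made up 0.645%, 1.95%, 1.5% and 2.02% of cells in vehicle replicates 1 to 4, 1.78%, 1.90% and 0.538% after FL-NfL, and 1.87%, 2.97% and 2.09% after CC-NfL. The means were 1.53% ± 0.632, 1.41% ± 0.755 and 2.31% ± 0.581. In a limma fit over 25 groups of cells, in which microglia and macrophages were divided into their states, the log2 odds ratio was 0.65 for CC-NfL against vehicle (SE 0.60, adjusted p = 0.583). It was -0.24 for FL-NfL against vehicle (SE 0.60, adjusted p = 0.871), -0.90 for FL-NfL against CC-NfL (SE 0.63, adjusted p = 0.597) and 0.21 for both proteins together (SE 0.51, adjusted p = 0.826). Exact permutation p-values of the percentages were 0.229, 0.686, 0.200 and 0.467. Groups of libraries did not overlap for 7 of 25 groups of cells (28.0%) for CC-NfL against vehicle, the proliferating state not among them. That fit called 4 of 25 groups (16.0%) for CC-NfL against vehicle, 5 (20.0%) for FL-NfL against vehicle and 5 (20.0%) for both proteins. FL-NfL against CC-NfL gave 0 calls (0%) by limma and 0 by the quasi-binomial model, and 1 group of cells had an unadjusted p under 0.05. The called groups were the 3 activated macrophage states, MHC2_high_2 macrophages and, in 2 of these contrasts, other immune cells, and no microglial state. For FL-NfL the sign turned without replicate 3 (0.55). The contrasts against vehicle share the same 4 vehicle libraries, here and throughout.

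The second question was how the number of proliferating cells stood to that of the other states. The authors' annotation divides microglia outside the homeostatic state into Activated_1, Activated_2, Activated_3 and Proliferating. Per 100 Activated_2 cells there were 54.3, 44.1, 36.6 and 43.4 proliferating cells in vehicle replicates 1 to 4. After FL-NfL there were 25.0, 22.1 and 13.5, and after CC-NfL 25.2, 25.4 and 31.8. All 6 NfL libraries lay below all 4 vehicle libraries, and this ratio was the only 1 of the 4 ratios to other states (25.0%) that separated them fully.

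The ratio to Activated_2 fell after FL-NfL. Its mean was 44.6 ± 7.32 per 100 in vehicle libraries (SD, n = 4), 20.2 ± 5.99 in FL-NfL (SD, n = 3) and 27.5 ± 3.71 in CC-NfL libraries (SD, n = 3). On the log2 scale limma gave a change of -1.22 for FL-NfL against vehicle (SE 0.26, interval -1.81 to -0.63, adjusted p = 0.00510). For CC-NfL against vehicle the estimate was -0.74 (SE 0.26, interval -1.33 to -0.15, unadjusted p = 0.0191, adjusted p = 0.0957). Both proteins together gave a fall of the ratio, with a log2 change of -0.98 (SE 0.22, adjusted p = 0.00741), lower in 6 of 6 libraries. Between the proteins the difference was -0.48 (SE 0.28, adjusted p = 0.147), although all FL-NfL libraries lay below all CC-NfL libraries, as they did in 2 of 4 ratios (50.0%). Mean ratios in b1 were 49.2 for vehicle, 23.5 for FL-NfL and 25.3 for CC-NfL, against 40.0, 13.5 and 31.8 in b2.

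The ratios were added after the shares had been seen, and the denominator of this one is itself a state that was tested. Activated_2 cells made up 10.6% ± 3.92 of microglia after vehicle, 20.2% ± 3.59 after FL-NfL (limma adjusted p = 0.151) and 25.6% ± 5.34 after CC-NfL (adjusted p = 0.0209). Of 5 ratios fitted together, limma called 2 (40.0%) for FL-NfL against vehicle and 2 (40.0%) for both proteins together, the second being the ratio to all activated states. It called 0 (0%) for CC-NfL against vehicle, with 2 at an unadjusted p under 0.05, and 0 (0%) between the proteins, with 0 at an unadjusted p under 0.05. The exact permutation p for the ratio to Activated_2 was 0.00476 for both proteins against vehicle (0.0190 after adjustment over 4 ratios), 0.0286 for FL-NfL (0.114) and 0.0571 for CC-NfL (0.114), and each NfL library was lower than each vehicle library. The call for both proteins together ended without the 3 libraries numbered 1 (adjusted p = 0.0671) and with the replicate number as a block (0.0708), at log2 changes of -0.93 and -0.95.

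**Figure D3:**
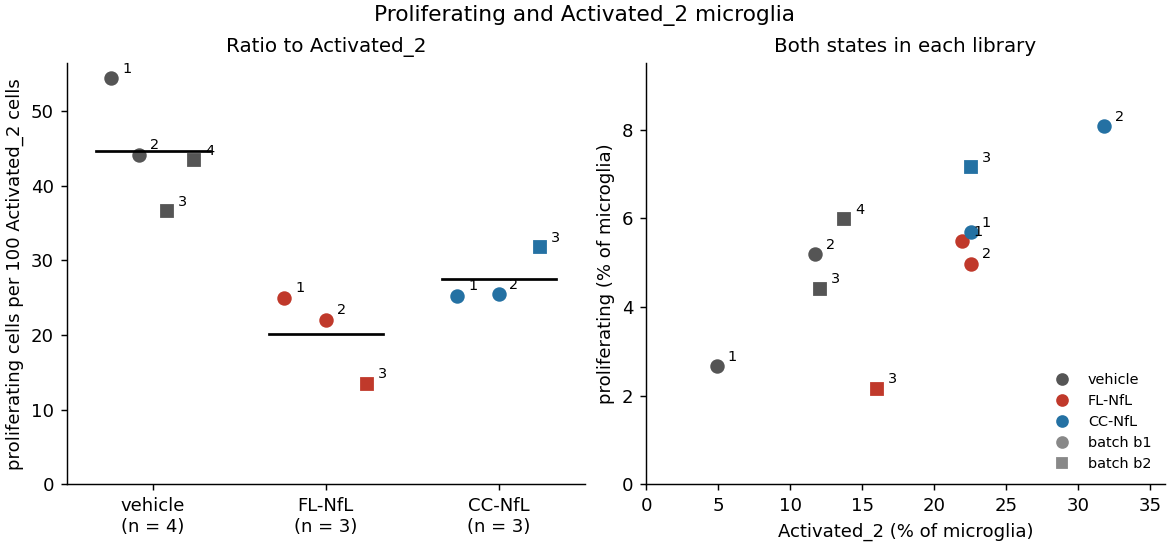
Left, proliferating cells per 100 Activated_2 cells in each library, with group means as bars; right, the share of microglia in each of these states, with 1 point per library coloured by group. The 6 NfL libraries lie between 13.5 and 31.8 per 100, all below the vehicle libraries at 36.6 to 54.3.

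With all 10 libraries, the ratios to the other single states did not pass. Proliferating cells per 100 homeostatic cells numbered 6.36 ± 2.44 in vehicle libraries, 7.28 ± 3.75 in FL-NfL and 14.0 ± 4.44 in CC-NfL libraries. All 3 CC-NfL libraries lay above all vehicle libraries, and 2 of 4 ratios (50.0%) separated these groups, the other being that to Activated_2. The log2 change for CC-NfL was 1.14 (SE 0.49, interval 0.04 to 2.25, adjusted p = 0.110). Per 100 Activated_1 cells there were 64.5 ± 9.08, 43.8 ± 9.91 and 66.4 ± 20.7 proliferating cells, with log2 changes of -0.53 for FL-NfL (SE 0.28, adjusted p = 0.102) and 0.04 for CC-NfL (SE 0.28, adjusted p = 0.892). Per 100 Activated_3 cells the vehicle libraries ranged from 85.3 to 500.0, a wider range than in either NfL group. The FL-NfL libraries lay between 54.5 and 133 and the CC-NfL libraries between 112 and 174, with log2 changes of -1.06 (SE 0.52, adjusted p = 0.102) and -0.30 (SE 0.52, adjusted p = 0.718). Some of these ratios passed once 1 library was left out. Without vehicle replicate 2 the ratio to Activated_3 was -1.60 for FL-NfL (adjusted p = 0.00548) and -1.22 for both proteins (0.0126), and without FL-NfL replicate 1 the ratio to Activated_1 was -0.75 for FL-NfL (0.0403). Without FL-NfL replicate 3 the ratio to homeostatic cells was 1.24 for CC-NfL (0.0303) and 1.03 for both proteins (0.0347). Between the proteins that ratio was -1.07 without vehicle replicate 1 (0.0233), and -1.58 without the 3 libraries numbered 1 (0.0105).

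As a share of all microglia outside the homeostatic state, proliferating cells made up 20.3%, 16.7%, 15.8% and 19.0% in vehicle replicates 1 to 4. After FL-NfL they made up 12.2%, 11.3% and 7.71%, below all vehicle and all CC-NfL libraries, and after CC-NfL 12.8%, 14.1% and 16.2%. With the same denominator, Activated_2 also separated FL-NfL from vehicle, in the other direction, while Activated_1 and Activated_3 did not. No activated state separated FL-NfL from CC-NfL. Of activated cells alone, Activated_2 made up 46 of 98, 145 of 319, 399 of 776 and 410 of 760 in vehicle replicates 1 to 4. After FL-NfL it made up 300 of 540, 272 of 470 and 453 of 730. For the proliferating share, CC-NfL replicate 3 was the only NfL library within the vehicle range. The means were 18.0% ± 2.06, 10.4% ± 2.38 and 14.4% ± 1.73. Exact permutation gave p = 0.0286 for FL-NfL against vehicle, 0.114 for CC-NfL against vehicle, 0.10 between the proteins and 0.0143 for both together. After adjustment over these 4 contrasts the values were 0.0571, 0.114, 0.114 and 0.0571, so none passed. In limma the log2 ratio of proliferating cells to all activated cells changed by -0.96 after FL-NfL (SE 0.26, adjusted p = 0.0103) and by -0.69 for both proteins together (SE 0.22, adjusted p = 0.0269), against -0.41 for CC-NfL (SE 0.26, adjusted p = 0.232). The call after FL-NfL ended when vehicle replicate 1 (adjusted p = 0.0506), FL-NfL replicate 3 (0.0548) or the 3 libraries numbered 1 (0.0531) were left out, and with the replicate block (0.0849). That for both proteins together ended without vehicle replicate 1 (0.153), 3 (0.0528) or 4 (0.0989), FL-NfL replicate 2 (0.0535), or CC-NfL replicate 1 (0.0553) or 2 (0.0689), in batch b1 alone (0.0506), without the 3 libraries numbered 1 (0.199) and with the replicate block (0.130). For vehicle, FL-NfL and CC-NfL in turn, the mean shares outside the homeostatic state were 18.5%, 11.8% and 13.4% in b1, and 17.4%, 7.71% and 16.2% in b2.

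The third question was how the state was made up in each group. Cluster 21 held 20.0%, 21.9%, 30.1% and 19.7% of proliferating cells in vehicle replicates 1 to 4. After FL-NfL it held 33.3%, 30% and 44.3%, and after CC-NfL 22.2%, 36.3% and 40.9%. Vehicle replicate 3 lay above 2 of the 6 NfL libraries (FL-NfL replicate 2 and CC-NfL replicate 1), and 4 of 6 NfL libraries exceeded every vehicle library. In the vehicle library with 5 such cells among 25, the exact interval was 6.83% to 40.7%. Among all microglia, cluster 21 held 54 of 939, 243 of 1233, 533 of 3310 and 576 of 2977 in vehicle replicates 1 to 4. FL-NfL libraries held 499 of 1367, 406 of 1206 and 552 of 2822 there. CC-NfL libraries held 471 of 1424, 892 of 2215 and 1244 of 4137. Except in FL-NfL replicate 3, these parts exceeded all vehicle parts, so a larger part in cluster 21 was not particular to proliferating cells. Whether the rises differ was not tested.

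The means were 22.9% ± 4.91 in vehicle libraries (SD, n = 4), 35.9% ± 7.46 in FL-NfL (SD, n = 3) and 33.1% ± 9.72 in CC-NfL libraries (SD, n = 3). For both proteins together the share was 34.5% ± 7.89 (n = 6) and differed from vehicle by 11.6 percentage points (exact permutation p = 0.0381 over all libraries and 0.0222 within batch). Adjustment over clusters 9 and 21, which nearly mirror each other, left these values as they were, but over the 4 contrasts the first became 0.152 and did not pass. FL-NfL alone differed from vehicle by 12.9 points (exact permutation p = 0.0857) and CC-NfL by 10.2 points (0.171), neither past the threshold, and the proteins differed by 2.73 points (0.700). The b1 means for vehicle, FL-NfL and CC-NfL were 20.9%, 31.7% and 29.3%, and those of b2 24.9%, 44.3% and 40.9%. Without 1 of vehicle replicates 1, 2 and 4 the exact permutation p for both proteins rose to 0.0833, without CC-NfL replicate 3 it was 0.0556, and without the 3 libraries numbered 1 it was 0.0857.

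Seen as shares of all microglia, cluster 21 proliferating cells made up 1.04% ± 0.351 in vehicle libraries, 1.43% ± 0.440 in FL-NfL and 2.37% ± 0.962 in CC-NfL libraries. The cells of cluster 9 made up 3.48% ± 1.13, 2.76% ± 1.35 and 4.56% ± 0.471. With both clusters in the microglial table, limma gave cluster 21 a log2 odds difference of 1.18 for CC-NfL against vehicle (SE 0.54, unadjusted p = 0.0350, adjusted p = 0.0701) and 0.50 for FL-NfL (SE 0.54, adjusted p = 0.436). Cluster 9 had 0.40 (SE 0.54, adjusted p = 0.467) and -0.50 (SE 0.54, adjusted p = 0.436). For both proteins together the estimates were 0.84 (SE 0.46, adjusted p = 0.113) for cluster 21 and -0.05 (SE 0.46, adjusted p = 0.910) for cluster 9. Between the proteins they were -0.69 (SE 0.57) and -0.90 (SE 0.57), with an adjusted p of 0.624 for both. By this fit, limma called 2 of 6 items (33.3%) for CC-NfL and for both proteins, and neither cluster of the proliferating state was among them. It called 0 of 6 (0%) for FL-NfL, where 1 had an unadjusted p under 0.05, and 0 (0%) between the proteins, where 0 did. For cluster 21 after CC-NfL the estimate passed when vehicle replicate 1 (adjusted p = 0.0404), CC-NfL replicate 1 (0.0483), FL-NfL replicate 3 (0.0249) or the 3 libraries numbered 1 (0.00458) were left out.

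Seen the other way, proliferating cells made up 7.34% ± 1.69 of the microglia of cluster 21 in vehicle libraries, 4.78% ± 0.304 in FL-NfL and 6.95% ± 2.97 in CC-NfL libraries. All 3 FL-NfL libraries lay below all vehicle libraries (exact permutation p = 0.0857), and CC-NfL libraries lay on both sides of the vehicle range, at 3.82%, 7.29% and 9.73% (0.829). How many other states of cluster 21 separated FL-NfL from vehicle was not counted, so this separation cannot be set against theirs.

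**Figure D4:**
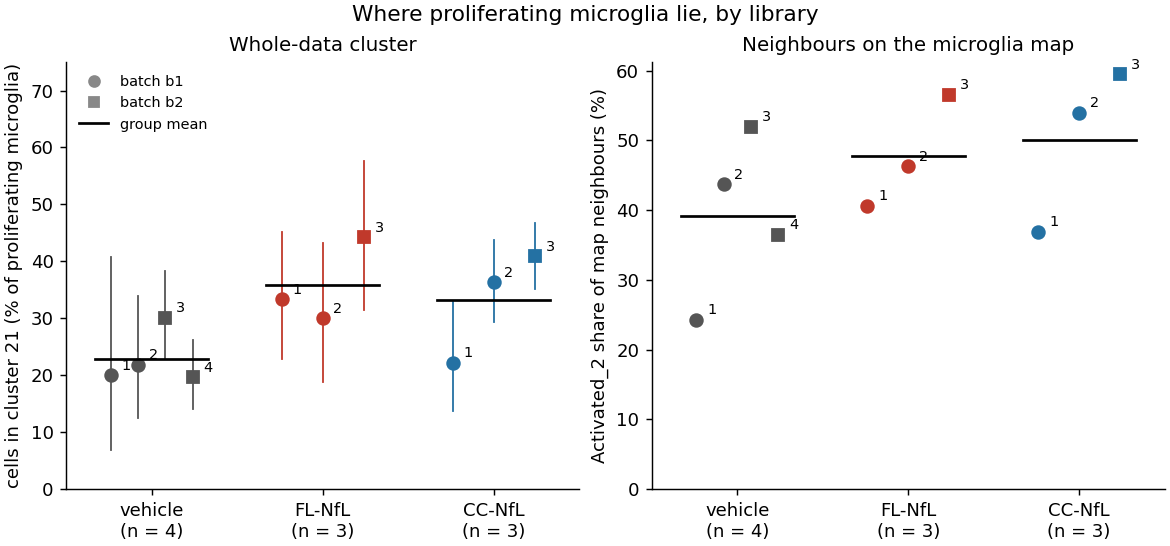
Left, the percentage of proliferating microglia of each library that fall in whole-data cluster 21, with exact 95% intervals as vertical lines; right, the mean Activated_2 share of their 30 nearest non-proliferating microglia from other libraries on the map of microglia. Bars are group means over 4, 3 and 3 libraries; 4 of 6 NfL libraries exceed every vehicle library on the left, and 3 of 6 on the right.

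The neighbours on the map gave a contrast of the same sign that did not pass. This measure is not independent of the cluster make-up. Cells of cluster 21 had 83.7% Activated_2 neighbours and those of cluster 9 had 32.8%, so a larger cluster 21 share raises it. Activated_2 cells made up 24.3%, 43.7%, 51.9% and 36.4% of the nearest microglia of other states in vehicle replicates 1 to 4, 40.6%, 46.3% and 56.5% after FL-NfL, and 36.9%, 54.0% and 59.4% after CC-NfL. The means were 39.1%, 47.8% and 50.1%. Exact permutation gave p = 0.343 for FL-NfL and 0.200 for CC-NfL against vehicle (0.457 for each after adjustment over 4 states), 0.900 between the proteins and 0.167 for both together (0.333). Activated_1 neighbours took 51.5%, 38.0% and 38.4%, with an exact permutation p of 0.110 for both proteins together (0.333 after adjustment).

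Across the 10 libraries, the proliferating share of microglia was set against the share of Activated_2 among the other microglia. For this and the other relations, vehicle, FL-NfL and CC-NfL libraries were pooled and permuted without regard to group. The correlations and their p-values therefore mix differences between groups with differences between libraries of a group. Pearson's r was 0.75 (permutation p = 0.0137, 0.0548 after adjustment over 4 relations) and Spearman's rho 0.69 (p = 0.0341, 0.136), neither past the threshold after adjustment. Without the libraries farthest from the median, vehicle replicate 1 and CC-NfL replicate 2, r was 0.41 (exact permutation p = 0.353), so the relation rests on them. Within batch b1, which holds both of those libraries, r was 0.91 over 6 libraries (exact permutation p = 0.0278, 0.111 after adjustment). Batch b2 held too few libraries.

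The other 3 relations did not pass either. For macrophages as a share of the other annotated cells r was 0.04 (permutation p = 0.911) and rho 0.02 (0.973), and without the 2 libraries farthest from the median r was 0.52. In batch b1 r was 0.28. For the microglial share of annotated cells r was 0.61 (permutation p = 0.0598, 0.120 after adjustment) and rho 0.26 (0.467), with 0.69 in b1, and without the 2 farthest libraries r was -0.21, so that relation too rests on them. For the log2 number of annotated cells r was 0.08 (permutation p = 0.835) and rho 0.19 (0.607), with 0.67 in b1 and 0.24 without the 2 farthest libraries. That number counts cells and is not a measure of sequencing depth, which was not examined.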

How the data were processed

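Cells were measured by droplet 3′ single-cell RNA sequencing. Per the submitters' processing notes, Cell Ranger 6.0.1 and build GRCm38 were used; how barcodes were filtered, doublets treated, cells clustered and states named is not given in the sources used here. A table deposited by the authors holds cluster numbers, state names and map positions (a score without unit). Of 108266 barcodes, 39352 (36.3%) carry no annotation and were left out. The part left out was uneven, and larger in every b1 library than in any b2 library. In FL-NfL replicate 1 (b1) 4220 of 14726 barcodes were annotated, against 9761 of 11878 in vehicle replicate 3 (b2). Condition and batch matched the labels in all 68914 annotated cells.

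Cells were counted per library, the replicate throughout. The labels do not say outright that each library is 1 animal, so p-values measure the spread between these samples, which may be partly technical. The fit used limma 3.58.1 under R 4.3.3 on the log2 odds of each item (0.5 added to both counts), with terms for group and batch, over items that averaged 10 or more cells a library, with Benjamini-Hochberg adjustment over the items and a threshold of 0.05. States within microglia are not independent, so their p-values may be too small. Percentages were compared by exact two-sided permutation of libraries (absolute difference of means; Python 3.11.15, SciPy 1.17.1), and correlations over 10 libraries by 100000 permutations. Neighbours were the 30 nearest microglia of other states and other libraries. Items named were the proliferating state and the states, classes and clusters that serve as its denominator, neighbours or container. The members, ratios and lists were chosen with earlier results of these data known. Replicate numbers were taken to pair FL-NfL with CC-NfL libraries, since all 3 correlations of their deviations from the group means were over 0.1 (0.22 to 0.52). Replicate 3 was the b2 library of both groups, and these deviations were not adjusted for batch. The main limma fits and the exact permutations, also those between the proteins, did not use this pairing. Alternatives are described in the closing section.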

Additional observations from a re-analysis of the deposited data

Results flagged for a closer look

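In vehicle replicate 1 the number of proliferating microglia per 100 Activated_3 cells was 500.0, from 25 proliferating and 5 Activated_3 cells, while the other vehicle libraries lay at 85.3, 96.7 and 156. It was marked because its gap to the nearest vehicle library exceeded Dixon's 95% critical value (0.829) for 4 samples. Of 13 measures examined in the vehicle libraries it was the only one marked, and chance marks about 5% of groups.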

How the results depend on the processing

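The number of cells limits the shares of small libraries most. With 3 or 4 libraries per group an exact test cannot go below 0.10 (3 against 3) or 0.0286 (4 against 3). The lower ratio to Activated_2 after FL-NfL kept its sign and its call under all 15 alternatives of the limma fit. By exact permutation it did not pass after adjustment over 4 ratios (0.114 over all libraries, 0.222 within batch). The unadjusted p was in both cases the smallest that these libraries allow. Differences below are log2 unless given as percentage points or r, adjusted p-values are limma's, and where a sign turned or a call changed the cause was not tested.

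For the share of microglia, batch b1 alone gave 0.50 for FL-NfL, and leaving out 1 library gave -0.56 to 0.42. For both proteins together, a centred log ratio gave -0.26, leaving out the 3 libraries numbered 1 gave -0.11 and leaving out 1 library -0.12 to 0.58. FL-NfL against CC-NfL passed without the 3 libraries numbered 1 (-1.27). Among annotated cells, batch b1 gave 0.71 for FL-NfL, with -0.80 to 0.55 without 1 library. For both proteins the quasi-binomial model gave -0.10, the centred log ratio -0.50, leaving out the libraries numbered 1 -0.31 and leaving out 1 library -0.35 to 0.65.

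The ratio to Activated_2 for CC-NfL passed in batch b1 (-0.96) and without FL-NfL replicate 3 or CC-NfL replicate 3 (range -1.06 to -0.64 without 1 library). For both proteins the call ended with the replicate block (-0.95) and without the libraries numbered 1 (-0.93). The ratio to all activated cells after FL-NfL lost its call with the replicate block (-0.90), without the libraries numbered 1 (-1.01) and without 1 of 2 libraries (-1.08 to -0.68). For both proteins it lost it with the replicate block (-0.63), in b1 (-0.66), without the libraries numbered 1 (-0.62) and without 1 of 6 libraries (-0.83 to -0.53). Signs turned for CC-NfL against Activated_1 (b1 -0.10, and -0.22 to 0.22 without 1 library) and Activated_3 (0.30 without the libraries numbered 1, and -0.83 to 0.25), and for FL-NfL against homeostatic cells (-0.62 and -0.40 to 0.82). In 6 cases a ratio to a single state other than Activated_2 passed without 1 library, and in 1 without the libraries numbered 1.

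Without the libraries numbered 1, cluster 21 cells gave -0.041 for FL-NfL, 1.25 for CC-NfL (now passed) and -1.29 between the proteins (now passed), and cluster 9 cells -1.03 for FL-NfL and -1.20 between the proteins (both now passed). Leaving out 1 library gave 0.87 to 1.55 for cluster 21 after CC-NfL, 0.52 to 1.14 for both proteins (passed without FL-NfL replicate 3), and for cluster 9 -0.87 to 0.16 after FL-NfL and -0.42 to 0.32 for both. Cluster 9 was 0.26 for FL-NfL in b1, and for both proteins 0.0054 without the batch term, 0.17 with the replicate block and 0.48 in b1.

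In percentage points, the share outside the homeostatic state for both proteins ran from -6.34 to -4.64 without 1 library and passed without vehicle replicate 3 or CC-NfL replicate 3. The Activated_2 share of neighbours between the proteins was 3.15 on the map of all cells and -8.90 to 2.37 without 1 library. The cluster 21 share of proliferating cells between the proteins was -1.46 without the libraries numbered 1 and -2.73 to 6.60 without 1 library. For both proteins it was 9.53 in b1 and 14.0 without the libraries numbered 1, both no longer passed, it remained 11.6 but did not pass when adjusted over the 4 contrasts (0.152, an adjustment chosen after seeing the data), and it was 9.63 to 14.0 without 1 library. Across libraries, leaving out 1 gave r of 0.61 to 0.85 for Activated_2 (passed without any one of 3 libraries) and -0.12 to 0.33 for macrophages. It gave 0.43 to 0.77 for the microglial share (-0.21 without 2 libraries) and -0.18 to 0.42 for the log2 number of annotated cells. The number of microglial states called ran from 0 to 3 for CC-NfL and for both proteins, and that of the 25 groups of cells from 2 to 7 for FL-NfL and 0 to 9 for CC-NfL and for both.

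Same-numbered libraries correlated from -0.32 to 0.21 (6 pairs with vehicle) in their deviations from the group means, so the numbers were not taken to pair vehicle with NfL libraries. Between FL-NfL and CC-NfL the replicate block changed no call on proliferating cells. Against vehicle it ended the call on the ratio to Activated_2 for both proteins. It also ended those on the ratio to all activated cells, after FL-NfL and for both proteins. With the replicate block, the share of microglia was -0.02 for FL-NfL, 0.85 for CC-NfL, -0.86 between the proteins and 0.41 for both, with no call gained or lost.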

Other observations

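Proliferation was also annotated among macrophages, a class that can hold both cells from blood and resident macrophages of the brain borders. Of 2886 macrophages with a state, 35 were named proliferating (1.21%, exact 95% interval 0.846% to 1.68%), against 5.39% of microglia (5.09% to 5.70%), where the intervals cover counting error only. The authors' macrophage class includes a state named Granulocytes, whose cells stayed in these denominators. It held 16 cells in vehicle replicate 4 and 16 in FL-NfL replicate 3. All 35 lay in whole-data cluster 32, and none of the proliferating microglia did. Proliferating macrophages numbered 1, 4, 2 and 0 in vehicle replicates 1 to 4, 8, 4 and 0 after FL-NfL, and 0, 12 and 4 after CC-NfL, too few for a comparison of groups. The proliferating share was higher in microglia than in macrophages in 9 of 10 libraries, the exception being vehicle replicate 2 with 4 of 52 macrophages (7.69%) against 5.19% of microglia. FL-NfL replicate 3, the library with the lowest proliferating share of microglia, held 0 proliferating cells among 793 macrophages. If a 0 is taken to allow 3 cells, the share may be up to 0.378%. This is an approximate one-sided 95% limit, unlike the exact intervals above. The same limit was 3.26% for vehicle replicate 4 and 3.57% for CC-NfL replicate 1.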
